A study of Mus with 10 samples.

Results

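The genes described here are the 9 granzymes Gzma, Gzmb, Gzmc, Gzmd, Gzme, Gzmf, Gzmg, Gzmk and Gzmm and the pore-forming protein gene Prf1, chosen by name and found by symbol as 10 of the 24564 genes in the count table. They were measured by RNA sequencing in type 1 innate lymphoid cells (ILC1s) sorted from mouse liver. ILC1s are tissue-resident lymphocytes without rearranged antigen receptors that make interferon-γ and can kill target cells. Ncr1 encodes NKp46, an activating receptor of ILC1s and natural killer (NK) cells.

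The data held 5 libraries of Ncr1gfp/gfp cells (Ncr1-KO), in which a gfp sequence takes the place of Ncr1 on both alleles, and 5 of Ncr1+/+ cells (Ncr1-WT). All mice were C57BL/6, of either sex and 6 to 8 weeks old per the study's methods, and no group received a treatment. Both sorts took lineage-negative NK1.1+ CD49a+ CD49b- cells, but Ncr1-WT cells were further gated on NKp46 and Ncr1-KO cells on GFP, so that genotype and gate cannot be told apart. The gfp allele is present in every cell of the mouse and is not limited to ILC1s. The sources used here do not say whether a library came from 1 mouse or from pooled mice, so the p-values measure the spread between these samples.

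Granzymes are serine proteases that cytotoxic lymphocytes store in secretory granules. Perforin, released with them, opens pores in the membrane of the target cell, through which granzymes reach its cytosol and cleave proteins there. Granzyme B has a caspase-like cleavage preference and granzyme A a trypsin-like one. Granzymes C to G form, with granzyme B, a gene cluster that is expanded in mice. In resting mouse NK cells granzyme and perforin transcripts can be stored ahead of the proteins, so the transcript levels given here are not protein levels.

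The libraries held 15796253 to 21975879 counts in Ncr1-KO and 17996935 to 22623133 in Ncr1-WT. Levels are given as CPM, which are counts divided by the library's total and brought to a common size, here after TMM scaling for library composition, and 3 counts in a library corresponded to 0.132 to 0.190 CPM. Ncr1 itself had 259 ± 97.5 CPM in Ncr1-KO and 2029 ± 99.97 CPM in Ncr1-WT (SD, n = 5 each). The ILC1 marker list summed to 4789 to 5078 CPM in Ncr1-KO and 4820 to 5109 CPM in Ncr1-WT once Ncr1 was left out. A gene was called when its adjusted p (edgeR's quasi-likelihood test, Benjamini-Hochberg over 11463 genes that passed the filter on low counts) was under 0.05 and its fold change above 1.5 or below 0.7. By this rule 0.733% of the tested genes were called, 0.201% higher and 0.532% lower in Ncr1-KO. An adjusted p under 0.05 with no limit on the fold was reached by 1.35% of tested genes, 0.567% higher and 0.785% lower. The CPM of 3.11% did not overlap between the genotypes. The near-equal sums of the ILC1 marker list held genes that differed in opposite directions. Itga1 (CD49a, a marker of the sort) had 971 CPM in Ncr1-KO and 779 CPM in Ncr1-WT without overlap. Its adjusted p was 0.000481 by edgeR's quasi-likelihood test, with a fold of 1.25 inside the limits. Il7r was called lower in Ncr1-KO, at 84.6 and 166 CPM.

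Gzma, Gzmb and Gzmc transcripts were higher in Ncr1-KO ILC1s, by 1.36-fold, 1.47-fold and 1.64-fold, while Prf1 was at 344 CPM in Ncr1-KO and 343 CPM in Ncr1-WT. The study's flow cytometry of untreated liver ILC1s gave a different picture for the proteins. It reported less granzyme B and granzyme C in Ncr1-KO than in Ncr1-WT, and comparable granzyme A. Its statistics were of the ILC1s positive for each granzyme, whereas CPM is a mean level over all sorted cells of a library. These are unlike measures, and why they differed was not tested. Of the 10 genes, 6 passed the filter and 4, Gzmd, Gzme, Gzmf and Gzmg, did not. Of the 6 tested, 3 had an adjusted p under 0.05, all of them higher in Ncr1-KO (0.567% of all tested genes), and 1, Gzmc, also passed the fold limit (0.201% of all tested genes). None had an adjusted p under 0.05 in the other direction. The 10 genes took 0.772 ± 0.134% of all counts in Ncr1-KO (0.621 to 0.946%) and 0.557 ± 0.0277% in Ncr1-WT (0.533 to 0.592%), ranges that did not overlap (SD, n = 5 each).

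**Figure D1:**
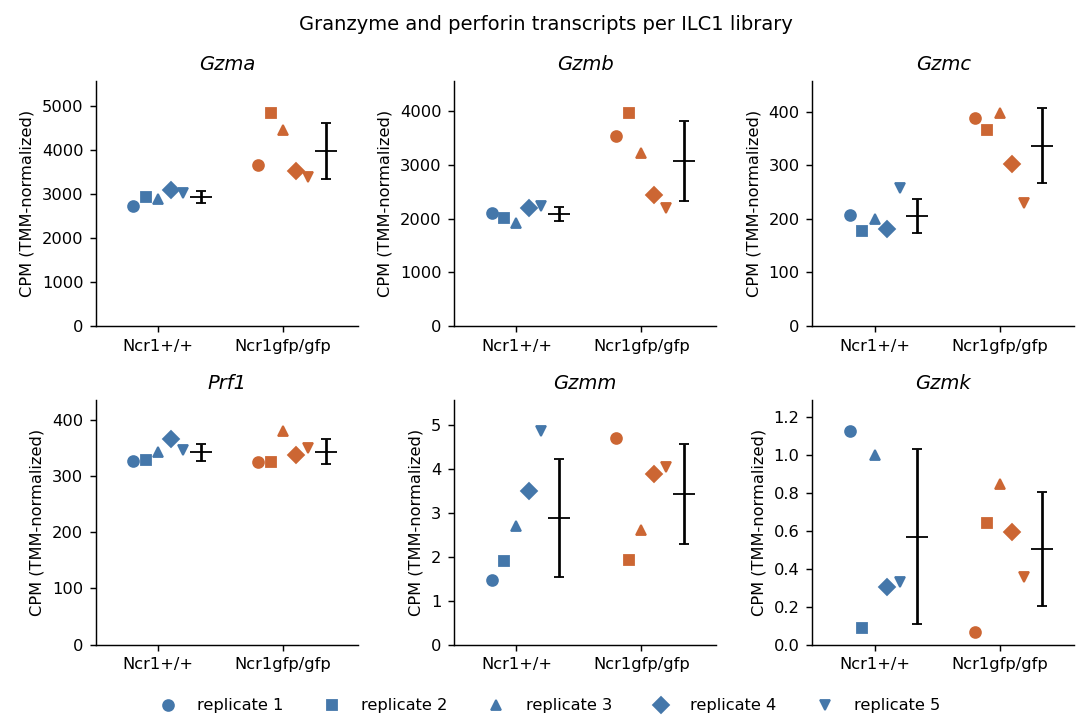
Level of the 6 tested genes in each library, in TMM-normalized CPM on a linear axis from 0, with blue for Ncr1+/+ (Ncr1-WT) and orange for Ncr1gfp/gfp (Ncr1-KO). Marker shapes give the replicate number, which is not known to pair the genotypes, and black bars give the mean and SD of 5 libraries. Gzma separates the genotypes, Gzmb and Gzmc overlap only through Ncr1-KO replicate 5, and Prf1, Gzmm and Gzmk overlap broadly.

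Gzma (chr13:113884035-113891189, minus strand, in the coordinates of the deposited table, whose build is not given) encodes granzyme A and was the most abundant of the 10. Its CPM in Ncr1-KO replicates 1 to 5 was 3655, 4844, 4467, 3513 and 3398. In Ncr1-WT replicates 1 to 5 it was 2726, 2943, 2881, 3094 and 3014. Every Ncr1-KO library lay above every Ncr1-WT library, with replicates 2 and 3 of Ncr1-KO the highest. The log2 fold change was 0.44 (SE 0.07, 95% interval of the fold 1.22 to 1.51), with an adjusted p of 0.00207 by edgeR's quasi-likelihood test. A two-sided exact permutation test of its CPM gave p = 0.00794, the smallest that 5 against 5 libraries allow. Gzma ranked 5 among all genes by mean CPM in Ncr1-KO and 9 in Ncr1-WT. It was the 1 gene of the 6 tested whose CPM did not overlap between genotypes, beside 3.11% of all tested genes.

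Gzmb (chr14:56877673-56881171, minus strand) encodes granzyme B. It had 3533, 3965, 3220, 2440 and 2199 CPM in Ncr1-KO replicates 1 to 5. The Ncr1-WT replicates had 2112, 2006, 1914, 2192 and 2229 CPM. Replicates 1 to 3 of Ncr1-KO were well above all Ncr1-WT libraries, replicate 4 was slightly above them, and replicate 5 fell within their range. The difference was 0.55 on the log2 scale (SE 0.11, fold 1.26 to 1.72 at 95%), with an adjusted p of 0.00813 by edgeR's quasi-likelihood test, and the exact permutation p was 0.0159. Its fold stayed under the limit of 1.5 with all libraries, and Gzmb was called when Ncr1-KO replicate 4 (log2 0.63) or replicate 5 (log2 0.65) was left out. With Ncr1-KO replicate 3 and Ncr1-WT replicate 1, the libraries highest in hepatocyte genes, both left out, the log2 difference was 0.54 and the adjusted p rose to 0.0596.

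Gzmc (chr14:56850238-56853494, minus strand), the granzyme C gene of the same cluster, was the called gene of the set. Its levels in Ncr1-KO replicates 1 to 5 were 388, 366, 398, 302 and 230 CPM. Those in Ncr1-WT were 208, 177, 199.9, 182 and 258 CPM. The genotypes overlapped through a single pair, Ncr1-KO replicate 5 lying below Ncr1-WT replicate 5. Gzmc rose by 0.72 on the log2 scale (SE 0.12, fold 1.39 to 1.95 at 95%), with an adjusted p of 0.00186 by edgeR's quasi-likelihood test and an exact permutation p of 0.0159. Its call did not depend on any single library, since each of the 10 could be dropped with Gzmc still called, at log2 fold changes from 0.65 to 0.83.

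In all 3 genes Ncr1-KO replicate 5 was the lowest library of its genotype. Its label carries the suffix 66, whereas the other 9 libraries carry 49 to 57. Whether it was made or sequenced apart from them is not stated, and no fit with such a term can separate 1 library from its own level. Without it the log2 fold changes were 0.65 for Gzmb and 0.83 for Gzmc. The coefficient of variation over libraries was 16.1% in Ncr1-KO and 4.77% in Ncr1-WT for Gzma, 24.1% and 6.24% for Gzmb, and 20.8% and 15.7% for Gzmc. The spread was wider among the Ncr1-KO libraries, least so for Gzmc, and this difference was not tested.

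Prf1 (chr10:60760584-60767011, plus strand) encodes perforin. Its CPM was 325, 325, 380, 338 and 349 in Ncr1-KO replicates 1 to 5. In Ncr1-WT it was 328, 329, 343, 366 and 347. The 2 sets of libraries were interleaved. The log2 fold change was 0.00 (SE 0.06, adjusted p of 0.988 by edgeR's quasi-likelihood test), and the 95% interval of the fold, 0.926 to 1.09, left out the folds estimated for Gzma, Gzmb and Gzmc. The sign of this near-zero difference turned in 5 of the alternative fits, where it was between -0.052 and -0.0024.

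**Figure D2:**
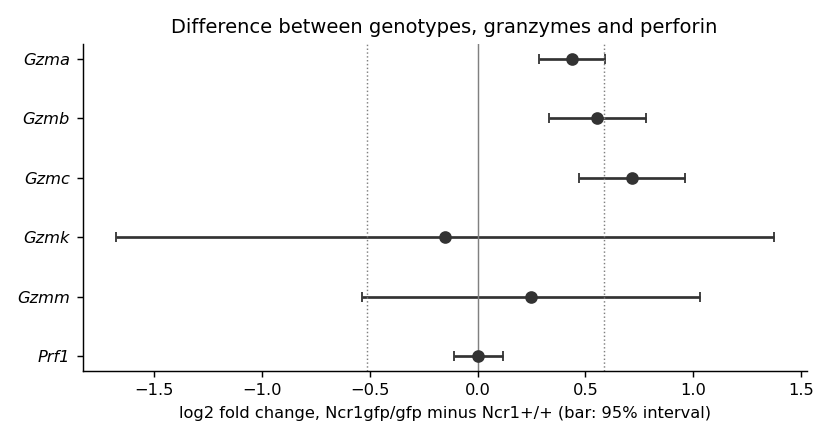
Log2 fold change, Ncr1-KO minus Ncr1-WT, of the 6 tested genes, with bars for the 95% interval and dotted lines at the fold limits of 1.5 and 0.7. The intervals of Gzma, Gzmb and Gzmc lie above 0, that of Prf1 is narrow around 0, and those of Gzmm and Gzmk are wide.

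The remaining granzymes were scarce. Gzmm (chr10:79151765-79158006, plus strand), granzyme M, had 74, 42, 49, 65 and 68 counts in Ncr1-KO and 26, 43, 54, 69 and 89 in Ncr1-WT. Its mean level was 3.43 ± 1.14 and 2.88 ± 1.35 CPM (SD, n = 5 each), and the log2 fold change of 0.25 had a 95% interval of -0.53 to 1.03 (adjusted p of 0.879 by edgeR's quasi-likelihood test). The interval held both no change and the fold estimated for Gzmc. Gzmk (chr13:113962082-113971105, minus strand), granzyme K, lies beside Gzma and had 1, 14, 16, 10 and 6 counts in Ncr1-KO and 20, 2, 20, 6 and 6 in Ncr1-WT. The libraries of each genotype spanned nearly the whole range, the log2 fold change of -0.15 ran from -1.68 to 1.37 at 95%, and its sign turned in 5 alternative fits.

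Gzmd, Gzme, Gzmf and Gzmg lie with Gzmb and Gzmc on chromosome 14 (chr14:56748405-56751430, chr14:56736456-56739462, chr14:56824100-56830244 and chr14:56775418-56778416, all on the minus strand). Gzmd had 1 count in each of Ncr1-KO replicates 3 and 4 and 0 elsewhere. Gzme had 2 counts in Ncr1-WT replicate 5, and Gzmf had 1 count there and 1 in Ncr1-KO replicate 2. Gzmg had 3 counts in Ncr1-WT replicate 3. No library exceeded 3 counts for any of these genes, so no fold change is given. They are close copies of each other, and a counter that drops reads with more than 1 place in the genome can undercount them. Reads that fit both Gzmc and another gene of the cluster would be lost in the same way.

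Per kilobase of exon, which allows levels to be compared between genes, Gzma was highest at 4528 ± 730 CPM per kb in Ncr1-KO and 3339 ± 159 in Ncr1-WT (SD, n = 5 each). Gzmb followed at 2031 ± 490 and 1383 ± 86.3 CPM per kb. Gzmc had 360 ± 75.0 and 219 ± 34.4, above Prf1 with 167 ± 10.9 and 167 ± 7.50 CPM per kb. The ranges of neighbouring genes in this order were apart within each genotype for these 4 genes, though narrowly for Gzmc and Prf1 in Ncr1-WT, where the lowest Gzmc library had 189 and the highest Prf1 library 178 CPM per kb. Gzmm, at 2.44 ± 0.809 and 2.05 ± 0.958 CPM per kb, and Gzmk, at 0.632 ± 0.379 and 0.717 ± 0.583, were lowest of the 6 tested genes and overlapped with each other in Ncr1-WT. Granzyme A and granzyme B transcripts thus made up most of the set in both genotypes, with 51.6% and 39.4% of its counts in Ncr1-KO and 52.6% and 37.5% in Ncr1-WT.

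Gzma, Gzmb and Gzmc varied together when the libraries of both genotypes were pooled. After the mean of each genotype was taken away, the log2 CPM of Gzma and Gzmb had a Pearson r of 0.76 over the 10 libraries, that of Gzmb and Gzmc 0.77, and that of Gzma and Gzmc 0.53. Prf1 did not share this pattern, with r of 0.22 to Gzma, -0.18 to Gzmb and -0.00 to Gzmc. Nor did the scarce granzymes, as Gzmm had r of -0.37, -0.24 and 0.027 to Gzma, Gzmb and Gzmc, and Gzmk had 0.16, -0.068 and 0.13. These values are a description of 10 libraries in which each point shares a library, its depth and its scaling. Gzma and Gzmb spread more widely among the Ncr1-KO libraries, which weigh more in the pooled values. Among the Ncr1-WT libraries Gzma and Gzmc did not follow each other. Replicate 1 had the lowest Gzma there (2726 CPM) with 208 CPM of Gzmc, and replicate 4 the highest (3094 CPM) with 182 CPM. No r was computed within each genotype alone.

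**Figure D3:**
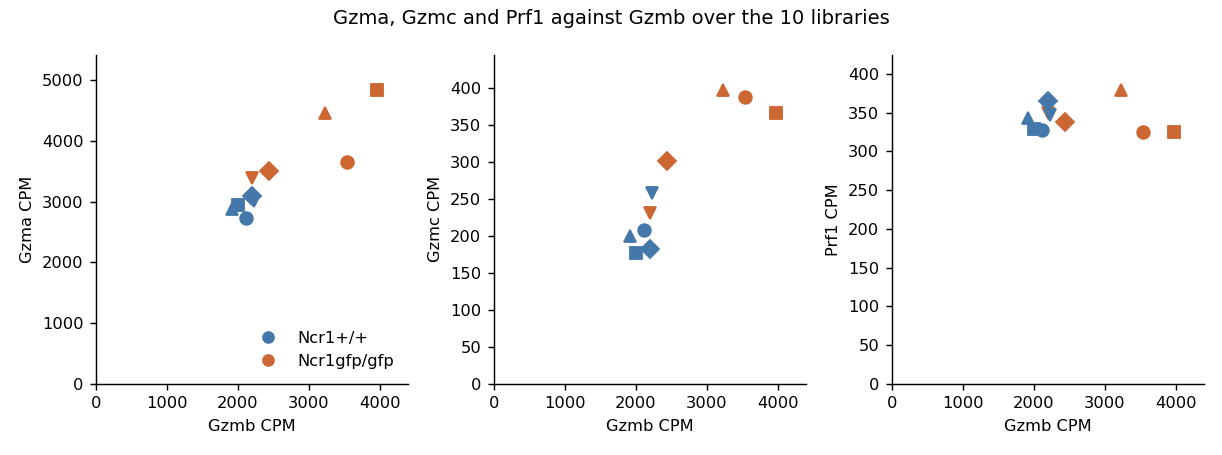
CPM of Gzma, Gzmc and Prf1 (vertical axes) against CPM of Gzmb (horizontal axes) in the 10 libraries, with blue for Ncr1-WT, orange for Ncr1-KO and marker shapes for the replicate number. Gzma and Gzmc are higher in the Ncr1-KO libraries with more Gzmb, whereas Prf1 stays between 325 and 380 CPM over the whole range.

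Among all tested genes, those whose log2 CPM followed each granzyme most closely over the 10 libraries, genotype means removed, were picked out by the same measure. For Gzma they were Itpripl2 (r 0.96), the translation factor gene Eif5a (0.95) and the ribosomal gene Rpsa (0.94). For Gzmb they were Kat14 (0.98), Psmd10 (0.96) and Bcl2l1 (0.96), the last encoding the survival protein BCL-XL, and for Gzmc they were Igbp1 (0.93), Nedd9 (0.92) and Zfp954 (0.92). For Prf1 they were the adaptor gene Dok2 (0.97), Grk2 (0.92) and Alyref2 (0.91). None of these 12 genes was called between the genotypes, and none was shared between the 4 sets. They were picked as the highest of 11463 genes, and nothing about shared function is read from them.

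Ratios of counts within a library do not depend on scaling, and 5 of them were compared between the genotypes (exact permutation, two-sided, with Benjamini-Hochberg adjustment over the 5). Gzmb counts were 96.7, 81.9, 72.1, 69.4 and 64.7% of Gzma counts in Ncr1-KO replicates 1 to 5, and 77.5, 68.2, 66.4, 70.9 and 74.0% in Ncr1-WT. The ranges overlapped, and the log2 ratio differed by 0.10 (exact permutation p = 0.444, adjusted 0.556). The log2 ratio of Gzmc to Gzma differed by 0.28 (p = 0.119, adjusted 0.251, exact permutation), and that of Gzmc to Gzmb by 0.18 (p = 0.151, adjusted 0.251, exact permutation). The differences between the rises of the 3 granzymes did not pass the test. For Gzmk to Gzma the difference was -0.51 (p = 0.579, adjusted 0.579, exact permutation), on counts as low as 1.

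Prf1 counts were 9.21, 8.20, 11.8, 13.9 and 15.9% of Gzmb counts in Ncr1-KO replicates 1 to 5. In Ncr1-WT they were 15.5, 16.4, 17.9, 16.7 and 15.6%. All Ncr1-KO libraries but replicate 5 had less Prf1 per Gzmb than every Ncr1-WT library. The log2 ratio was lower by 0.52 in Ncr1-KO (difference -0.52, exact permutation p = 0.0238), which did not pass after adjustment over the 5 ratios (0.119). Leaving out Ncr1-KO replicate 5, the library that overlapped, gave a difference of -0.64 (adjusted exact permutation p = 0.0397), whereas leaving out any of the other 9 gave adjusted exact permutation p of 0.119 to 0.317. As a share of the counts of all 10 genes, Prf1 took 3.42 to 5.65% in Ncr1-KO and 5.93 to 6.43% in Ncr1-WT, ranges that did not overlap. Most of these counts were Gzma and Gzmb, so the lower share follows from their higher levels and is not a separate result on Prf1.

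**Figure D4:**
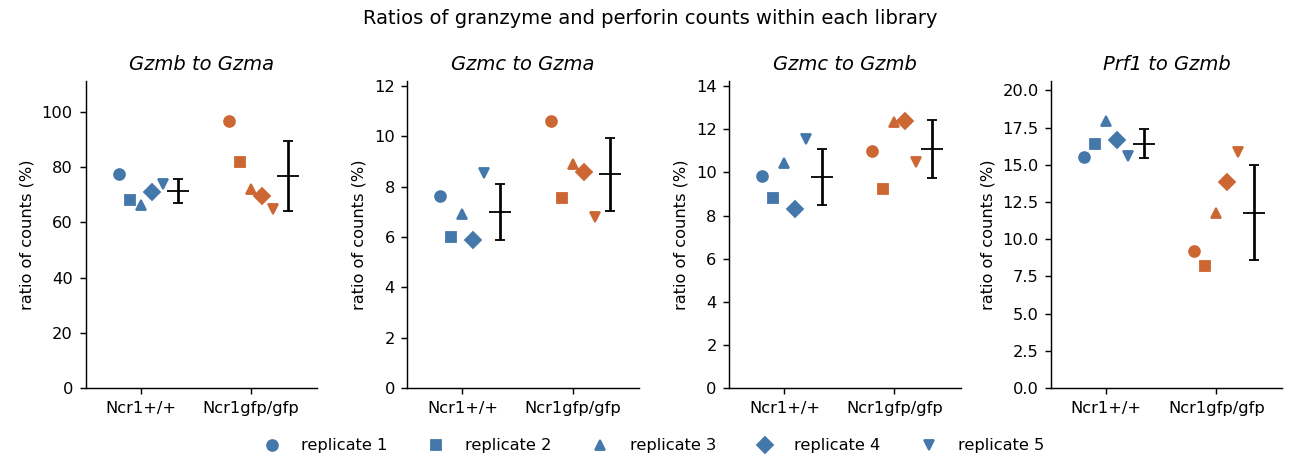
Ratio of the counts of 2 genes within each library, in percent, for Gzmb to Gzma, Gzmc to Gzma, Gzmc to Gzmb and Prf1 to Gzmb, with shapes for the replicate number and black bars for the mean and SD of 5 libraries. The first 3 ratios overlap between the genotypes, and Prf1 to Gzmb is lower in 4 of 5 Ncr1-KO libraries than in any Ncr1-WT library.

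Lists of genes around the cytotoxic granule were set beside the granzymes in the same fit. The median log2 fold change was 0.34 for the 6 tested granzyme and perforin genes and 0.00 for all tested genes. Over the 6 lists, 98 of 107 genes were tested and 5 were called, all of them lower in Ncr1-KO (0.532% of all tested genes).

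Genes of granule maturation, which process granzyme precursors or build the granule, had a median of 0.07, and 0 of 19 were called. Of them 1, Cst7, had an adjusted p under 0.05. Cst7 encodes cystatin F, an inhibitor of cathepsin C, the protease that activates granzyme precursors. It had 178 ± 16.9 CPM in Ncr1-KO and 143 ± 10.1 CPM in Ncr1-WT with no overlap (SD, n = 5 each). The difference was 0.31 on the log2 scale (SE 0.07), with an adjusted p of 0.0280 by edgeR's quasi-likelihood test. Dropping any 1 of 6 libraries, replicates 1, 2 and 3 of either genotype, took the adjusted p of the edgeR test to 0.05 or above, and at most to 0.0779. Without both libraries highest in hepatocyte genes it was 0.135.

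The lists for granule exocytosis, protease inhibitors and death ligands had no gene with an adjusted p under 0.05. Of 24 exocytosis genes tested, the 2 with the highest CPM were the non-muscle myosin heavy chain gene Myh9 (3274 CPM in Ncr1-KO and 3203 in Ncr1-WT) and Dock2 (1437 and 1482 CPM), a regulator of the actin cytoskeleton. Of 6 inhibitor genes tested, Serpinb9, whose product inhibits granzyme B, had 190 ± 12.8 and 159 ± 16.3 CPM (log2 fold change 0.25, adjusted p of 0.0914 by edgeR's quasi-likelihood test), and Serpinb6b had 147 and 152 CPM. Of 6 death ligand genes, Tnfsf10 (TRAIL) had 811 and 762 CPM and Fasl 280 and 255 CPM, with adjusted p of 0.427 and 0.420 by the same edgeR test. These 4 lists of granule and killing genes, granule maturation included, held no called gene, a count near the background of 0.733% of all tested genes.

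Of 26 tested transcription factors, 20 had a lower estimate in Ncr1-KO, beside 49.3% of all tested genes, and the median was -0.12. An adjusted p under 0.05 was reached by 4, all lower (0.785% of all tested genes). Tcf7, which encodes TCF-1, was called, at 50.1 ± 12.4 against 77.2 ± 14.0 CPM (log2 fold change -0.63, adjusted p of 0.0247 by edgeR's quasi-likelihood test). Its call was lost without Ncr1-KO replicate 2, 3 or 4 or Ncr1-WT replicate 1 or 3, where the adjusted p reached 0.0837, and with DESeq2 (adjusted p of 0.0577). Runx1 (-0.37), Ets1 (-0.21) and Ikzf2 (-0.44), the last encoding Helios, had log2 differences within the fold limits. The adjusted p of Runx1 reached 0.0637 and that of Ets1 0.0615 by edgeR with 1 library left out, and without both libraries highest in hepatocyte genes that of Ets1 was 0.0742 and that of Tcf7 0.146.

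Cytokine receptors held the other 4 called genes of 17 tested, all lower in Ncr1-KO (0.532% of all tested genes). They were Il2ra (log2 fold change -1.24), the high-affinity chain of the interleukin-2 receptor, Il7r (-0.97), and both chains of the interleukin-18 receptor, Il18r1 (-1.10) and Il18rap (-0.60). No single library was needed for their calls, and Il7r was not called without both libraries highest in hepatocyte genes (adjusted p of 0.0550 by edgeR's quasi-likelihood test). The granzyme transcripts and the transcripts of these receptors thus differed between the genotypes in opposite directions. Whether the differences are linked was not tested.

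**Figure D5:**
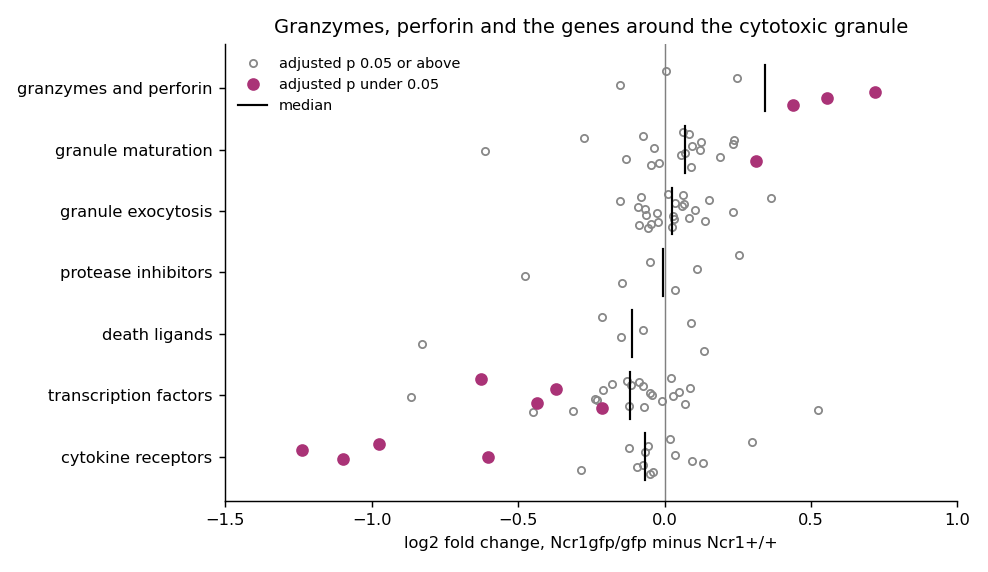
Log2 fold change, Ncr1-KO minus Ncr1-WT, of each tested gene among the granzymes and perforin and in the 6 lists around the granule, with filled points for an adjusted p under 0.05 (edgeR's quasi-likelihood test) and black lines for medians. The 3 filled points of the granzymes and Cst7 lie to the right of 0, and the 8 filled points among transcription factors and cytokine receptors lie to the left.

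The genes that start within 250 kb of a granzyme or perforin start site were examined in the same table. On chromosome 14, around Gzmb and Gzmc, 16 neighbours were listed, 9 had no count in any library, and 0 of 4 tested were called. On chromosome 10, around Prf1 and Gzmm, 0 of 19 tested neighbours were called. Beside Gzma and Gzmk on chromosome 13, 1 of 4 tested neighbours was called, Gpx8, which encodes a glutathione peroxidase family protein. Gpx8 (chr13:113832971-113836596) lies on the strand of Gzma, downstream of it, inside the span listed for Cdc20b on the other strand.

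Gpx8 had 78, 95, 64, 29 and 37 counts in Ncr1-KO replicates 1 to 5 and 10, 15, 18, 24 and 19 in Ncr1-WT. The genotypes did not overlap, and replicates 1 to 3 of Ncr1-KO were the highest, as for Gzmb. Its log2 fold change was 1.92 (SE 0.44, adjusted p of 0.0295 by edgeR's quasi-likelihood test). The call was lost in 8 of 10 fits without 1 library, namely Ncr1-KO replicate 1, 2 or 3 or any of the Ncr1-WT replicates, with adjusted p up to 0.103 by edgeR, and without both libraries highest in hepatocyte genes (0.108). The library kit does not mark strand, so strand cannot tell reads of Gpx8 from those of Cdc20b wherever their exons overlap. The listed positions do not show whether any exons do. Cdc20b had 4.34 and 3.08 CPM in Ncr1-KO and Ncr1-WT (log2 fold change 0.49, adjusted p of 0.576 by edgeR's quasi-likelihood test).

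Granzymes are also made by NK cells, T cells and, for granzyme B, mast cells, and the markers of these cells were read in the same libraries. In bulk samples a higher level per cell and more cells of a type with a high level cannot be told apart. The 12 NK cell markers summed to 349, 275, 265, 240 and 237 CPM in Ncr1-KO replicates 1 to 5 and to 217, 223, 212, 181 and 217 CPM in Ncr1-WT. The ranges did not overlap, and the order of the Ncr1-KO libraries was close to that of Gzmb. In Ncr1-WT the orders differed. There replicate 4 had the lowest sum with 2192 CPM of Gzmb, and replicate 2 the highest sum with 2006 CPM. Of 11 tested markers 1 was called, Itgam (CD11b), at 96.0 and 49.4 CPM. Without Itgam the list summed to 157 to 228 CPM in Ncr1-KO and 138 to 171 CPM in Ncr1-WT, with overlap. Eomes, the defining transcription factor of NK cells, had 10.2 ± 4.88 and 7.10 ± 1.08 CPM (adjusted p of 0.455 by edgeR's quasi-likelihood test), and Klra4 had no count in any library.

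The 12 T cell markers summed to 824 to 1039 CPM in Ncr1-KO and 658 to 783 CPM in Ncr1-WT, again without overlap. Of 9 tested markers, Cd3e (21.1 and 5.72 CPM) and Cd8a (19.4 and 6.69 CPM) were called higher, and Cd28 was called lower (22.6 and 43.1 CPM). The CPM of these called markers did not overlap between the genotypes (3.11% of all tested genes). Cd3d (13.6 and 6.62 CPM, adjusted p of 0.0527 by edgeR's quasi-likelihood test), Themis (0.670 and 0.243 CPM), Cd4 (2.31 and 1.95 CPM) and Lat (85.7 and 85.1 CPM) were not called. Cd5 (0.919 and 0.121 CPM), Cd6 (0.424 and 0.0189 CPM) and Cd8b1 (0.0106 and 0.304 CPM) did not pass the filter on low counts. The list's largest contributor, Cd3g, had 687 and 501 CPM and was within the fold limit. Without Cd3g the list summed to 223 to 297 CPM in Ncr1-KO and 216 to 235 CPM in Ncr1-WT, with overlap. The largest genes in that sum were Lat and Cd247 (89.3 and 77.3 CPM, not called), so it says little of the scarcer markers. Cd247 encodes CD3ζ, which the study places downstream of NKp46. The mast cell and basophil list summed to 14.9 to 29.6 CPM and 21.9 to 42.2 CPM, and 6 of its 10 genes, among them Mcpt4 and Fcer1a, had no count in any library. Nearly all of that sum was Kit, the 1 gene of the list that was tested, which was called lower in Ncr1-KO (18.9 and 32.0 CPM, log2 fold change -0.76). The part of NK cells or T cells in the differences of Gzma, Gzmb and Gzmc was not tested.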

How the data were processed

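Liver ILC1s from 5 Ncr1-KO and 5 Ncr1-WT samples were profiled by SMART-Seq v4, a kit that does not mark strand, with an input of 2 ng RNA and single reads of 51 cycles. Per the study's methods, the authors trimmed the reads, aligned them with STAR to mm10 and counted them per gene with HTSeq at default settings, which drops reads with several places in the genome. They deposited 1 table of raw counts with gene positions. The positions are printed as deposited. They are not those of GRCm38, and their build is not given in the sources used here.

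The deposited counts were tested with edgeR 4.0.16 (R 4.3.3; filterByExpr, TMM, quasi-likelihood F test, genotype as the only term) with Benjamini-Hochberg adjustment over 11463 genes. The study's thresholds were kept (adjusted p under 0.05, fold above 1.5 or below 0.7). Standard errors and 95% intervals came from the F statistic. Log2 ratios of counts were compared by exact permutation. Alternatives used DESeq2 1.42.0, limma 3.58.1 (voom), other scalings, filters and thresholds, and left out libraries. The edgeR step was tested on simulated counts. No 2 libraries of a genotype matched within sampling noise, so none was treated as a library deposited again.

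The genes and lists were chosen with earlier results of these data known. Named genes were the 10 genes, Ncr1, each list's genes with an adjusted p under 0.05 or otherwise its 2 with the highest CPM, neighbours within 250 kb, and the 3 genes of highest r for each of Gzma, Gzmb, Gzmc and Prf1. Of the neighbours, only a called gene and the gene overlapping it are named. Marker genes are named where called, largest in their list, at 0, or defining, and some others are named beside them. All were chosen after their values were seen. Library totals ran from 15796253 to 22623133 counts, and counting error limits precision mainly for granzymes with few counts.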

Additional observations from a re-analysis of the deposited data

Results flagged for a closer look

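In 5 of 40 groups of 5 libraries examined, 1 library stood apart from the other 4 by more than 0.71 of the range of its group. Chance does this in about 1 in 20 groups, or 2 of 40. The log2 ratio of Gzmk to Gzma was -15.81 in Ncr1-KO replicate 1, where Gzmk had 1 count, and the next lowest Ncr1-KO library had -13.22. The summed NK cell markers were 181 CPM in Ncr1-WT replicate 4, below 212 to 223 CPM in the other Ncr1-WT libraries. The mast cell and basophil markers were 29.6 CPM in Ncr1-KO replicate 1, above 14.9 to 18.4 CPM in the others. The hepatocyte markers were 221 CPM in Ncr1-KO replicate 3, against 123 to 147 CPM in the other Ncr1-KO libraries, and 193 CPM in Ncr1-WT replicate 1, against 136 to 146 CPM. No library stood apart in this way for Gzma, Gzmb, Gzmc, Prf1, Gzmm or Gzmk.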

How the results depend on the processing

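With no limit on the fold change 3 of the granzymes were called (Gzma, Gzmb and Gzmc), and with an absolute log2 fold change above 1 the count was 0. Leaving out each library in turn gave 1 to 2 called genes, and Gzmb was the gene gained. The log2 fold change over these fits ran from 0.36 to 0.49 for Gzma, 0.45 to 0.65 for Gzmb and 0.65 to 0.83 for Gzmc. The other scalings, tests and filters left 1 gene called. The sign of Gzmk turned with limma-voom (0.19), with the replicate block (0.062), and without Ncr1-KO replicate 1 (0.12), Ncr1-WT replicate 1 (0.24) or Ncr1-WT replicate 3 (0.15), with a range of -0.44 to 0.24 when a library was left out. The sign of Prf1 turned without Ncr1-KO replicate 3 (-0.035), Ncr1-KO replicate 5 (-0.0024), Ncr1-WT replicate 1 (-0.013) or Ncr1-WT replicate 2 (-0.011), with a range of -0.035 to 0.030, and without both libraries highest in hepatocyte genes (-0.052). The difference in the log2 ratio of Gzmk to Gzma ran from -1.05 to 0.10 and that of Prf1 to Gzmb from -0.64 to -0.40 when a library was left out. The listed genes called numbered 4 to 6 in those fits and 3 without both libraries highest in hepatocyte genes, where Tcf7 and Il7r were lost. The cause of these changes was not tested. Deviations of libraries with the same replicate number correlated between -0.03 and 0.05, and 2 of 10 libraries correlated best with their own number. No shared effect of the number was seen, though whether libraries of the same number were prepared together is not stated. The replicate block left 1 granzyme and 5 listed genes called, and moved the count over all genes from 84 to 87. With it Gpx8 was not called (adjusted p of 0.118 by edgeR) and Cst7 had an adjusted p of 0.0569. A minimum of 10 counts in every library left no value for Gzmk. Depth limits what can be said of the 4 granzymes with at most 3 counts in a library.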
